A study of Mus musculus with 6 samples.

Results

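The WNT ligands and WNT feedback inhibitors described here are 10 genes, 4 ligands (Wnt5a, Wnt5b, Wnt6 and Wnt10a) and 6 inhibitors (Nkd1, Nkd2, Notum, Axin2, Rnf43 and Znrf3), taken by gene symbol from the 35727 Ensembl genes of the count table. Poly(A) RNA was sequenced from sorted, red-fluorescent cells of transplanted mouse tumours, a model of undifferentiated pleomorphic sarcoma, in 3 libraries of cells that carried a hairpin against Postn, which encodes the matrix protein periostin (shPostn), and 3 libraries of cells that carried a scrambled hairpin (shSCR). All derive from 1 line (p53KO Ccne1 OE). It began as mesenchymal stem cells of female C57/Bl6 p53KO mice, received Ccne1 and RFP by retrovirus and was passaged through female wild-type C57/Bl6 recipients, so both groups lack p53 and overexpress cyclin E1. The labels name 1 hairpin against Postn and no clone, and give neither the age and genotype of the host mice nor the number of tumours behind each group. Every p-value here reflects the spread between these samples only, and that spread may be technical; a difference between the lines that received each hairpin cannot be told apart from an effect of the hairpin's target. Titles call the shPostn samples a knockout, although the protocol describes a hairpin.

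WNT proteins are lipid-modified secreted ligands that bind Frizzled receptors. In the canonical branch this stops the destruction complex, with its scaffolds AXIN and APC, from degrading beta-catenin, which then enters the nucleus and acts with TCF/LEF factors on target genes; other branches act without beta-catenin on cell polarity and calcium. Several canonical target genes encode inhibitors of the pathway itself and form a negative feedback, and in mesenchymal cells WNT signals are known for their part in the choice between bone, fat and fibroblast fates.

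The libraries summed to between 19603269 and 19931734 counts in shPostn and between 19847860 and 20376554 in shSCR. Postn, the hairpin's target, measured 217, 471 and 638 CPM (counts scaled to the library total, here adjusted by the TMM method) in shPostn, against 4095, 3600 and 3223 CPM in shSCR, and the log2 fold change was −3.04 (SE 0.41, edgeR adjusted p = 0.0125). This call was lost without shSCR replicate 1 (edgeR adjusted p = 0.0532) and without shSCR replicate 2 (0.0542). A list of 9 mesenchymal markers summed to between 25899 and 45968 CPM in shPostn and between 34793 and 39131 CPM in shSCR, while the epithelial keratins Krt5 and Krt18 and the adipocyte genes Adipoq, Lep and Cidec had 0 counts throughout. A list of 11 leukocyte markers summed to 158, 67.8 and 996 CPM in shPostn replicates 1, 2 and 3, against 229, 169 and 95.9 CPM in shSCR. T cell, endothelial, epithelial, skeletal muscle and adipocyte marker lists each summed to at most 6.49 CPM in any shPostn library and at most 4.67 CPM in any shSCR library. All 11 leukocyte markers were highest in shPostn replicate 3, so that library stands apart, and results are also given without it where it matters.

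Of the 10 genes, 8 had enough counts to be tested (a filter at about 10 counts in 3 libraries); Nkd2 and Rnf43 did not. In the edgeR fit across all 12819 tested genes, 3 of the 8, namely the ligand Wnt6 and the inhibitors Nkd1 and Notum, were called lower in shPostn at an adjusted p threshold of 0.05, where 5.53% of all tested genes were called lower. None was called higher by edgeR (4.61% of all genes were), although 1, Wnt5a, had an unadjusted p under 0.05, as did 27.0% of all tested genes, and was called by DESeq2 (which called 6.94% of its genes higher). The libraries of the groups did not overlap for 4 members that were lower (16.9% of tested genes) and for 1 that was higher (16.6%). The 10 genes were chosen with results of this same comparison known, so nothing is read from these shares, and the fold changes of the members are a description. Wnt6, with 7, 9 and 9 counts in shPostn, and Notum, with 8, 5 and 14, passed the filter through their shSCR libraries. The log2 fold changes of the 8 ran from −3.67 for Wnt6 to 0.40 for Wnt5b.

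**Figure D1:**
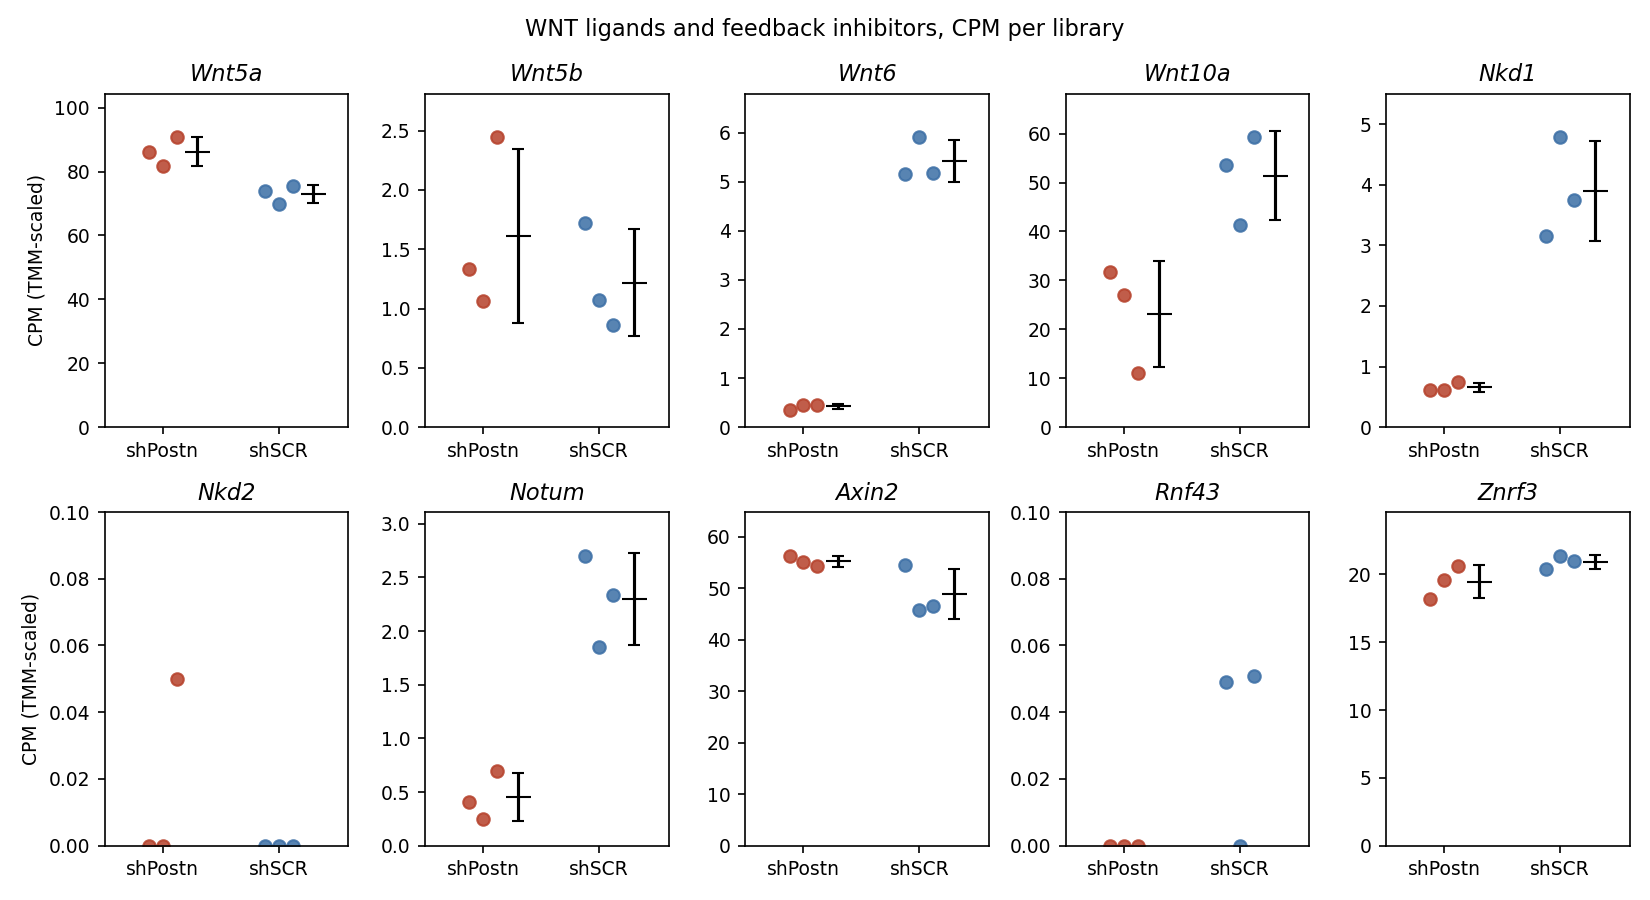
CPM of the 10 genes in each library, shPostn left and shSCR right in each panel; points are libraries in the order of replicates 1 to 3, bars the mean ± SD for the 8 tested genes, and each panel has its own linear axis from 0. Wnt6, Nkd1, Notum and Wnt10a lie lower in every shPostn library than in any shSCR library, Wnt5a lies higher, and the others overlap.

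To let the start regions of members that were lower together be read beside a classic target that was not, the 250 bases upstream of the RefSeq gene start (GRCm38.p6, coding strand, 5′ to 3′) are shown for Wnt6, Nkd1 and Axin2, and for the 1 of the members' promoters with a TCF/LEF motif, that of a Wnt5b start. RefSeq promoters were at hand for 6 of the 10 genes, with 9 starts (Wnt5b, Wnt6, Nkd1, Nkd2, Axin2 and Rnf43). The positions are chr1:74771642-74771891 (plus strand) for Wnt6, chr8:88527383-88527632 (plus) for Nkd1, chr11:108920099-108920348 (plus) for Axin2 and chr6:119449387-119449636 (minus) for Wnt5b. The RefSeq start of Nkd1 and the Wnt5b start shown lie inside the spans of the genes given with their values. The window of the Wnt5b start at the 5′ end of its span (chr6:119544348-119544597) held no motif. Capitals mark a match to the motif.
Wnt6: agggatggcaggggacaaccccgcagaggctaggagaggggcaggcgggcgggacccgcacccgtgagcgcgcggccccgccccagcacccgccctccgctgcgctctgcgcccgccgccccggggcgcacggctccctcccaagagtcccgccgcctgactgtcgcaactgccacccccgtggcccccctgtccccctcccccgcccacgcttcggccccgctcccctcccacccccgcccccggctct
Nkd1: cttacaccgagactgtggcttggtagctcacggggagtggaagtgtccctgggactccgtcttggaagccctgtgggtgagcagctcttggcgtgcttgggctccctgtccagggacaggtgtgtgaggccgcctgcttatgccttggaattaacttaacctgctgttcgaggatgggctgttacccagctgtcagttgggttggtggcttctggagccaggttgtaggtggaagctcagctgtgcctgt
Axin2: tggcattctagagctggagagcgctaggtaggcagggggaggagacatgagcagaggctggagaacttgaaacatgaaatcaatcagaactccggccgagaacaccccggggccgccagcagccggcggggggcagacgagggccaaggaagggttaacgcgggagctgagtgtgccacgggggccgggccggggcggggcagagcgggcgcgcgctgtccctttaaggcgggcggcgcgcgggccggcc
Wnt5b: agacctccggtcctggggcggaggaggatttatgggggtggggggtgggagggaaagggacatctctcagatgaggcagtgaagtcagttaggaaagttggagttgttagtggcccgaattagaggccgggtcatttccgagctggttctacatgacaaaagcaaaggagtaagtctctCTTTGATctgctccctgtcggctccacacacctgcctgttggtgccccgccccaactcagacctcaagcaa

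The motif was searched on both strands as the letters CTTTG with AA, AT, TA or TT after them, forms that cannot overlap one another on 1 strand. It occurred in 1 of the 9 upstream windows, as CTTTGAT on the coding strand beginning 71 bases before the Wnt5b start, and in 14.84% of the 32851 RefSeq windows of the same length. The windows of Wnt6, Nkd1 and Axin2 held none of these letters, which says nothing of sites elsewhere. GC made up 79.6% of the Wnt6 window, 58.4% of the Nkd1 window and 69.2% of the Axin2 window, beside a median of 52.4% over all windows.

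Among the ligands, Wnt6 showed the deepest difference. Wnt6 (ENSMUSG00000033227; GRCm38 chromosome 1, 74771892 to 74785322, plus strand) is a ligand mostly linked to the beta-catenin branch. It measured 0.359, 0.455 and 0.449 CPM in shPostn, against 5.16, 5.91 and 5.17 CPM in shSCR. The 3 shPostn libraries lie close together, far below the 3 of shSCR. The means were 0.421 ± 0.0537 CPM in shPostn and 5.42 ± 0.427 CPM in shSCR (SD, n = 3 each), and the log2 fold change was −3.67 (SE 0.24). The summed counts were 25 in shPostn against 328 in shSCR, a ratio of 0.0778 with a 95% exact Clopper-Pearson interval of 0.0496 to 0.117. Such intervals, here and below, pool the 3 libraries of each group, so they cover counting error alone and leave out the spread between libraries. PCR copies of a molecule are also counted in them as separate reads. Wnt6 was called with any 1 library left out, and its log2 fold change then lay between −3.72 and −3.56.

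Wnt10a lies 6.194 kb downstream of Wnt6 on the same strand (ENSMUSG00000026167; chromosome 1, 74791516 to 74804179) and encodes a ligand of the beta-catenin branch known from teeth, skin and the restraint of fat cell formation. It measured 31.7, 26.9 and 11.03 CPM in shPostn, against 53.6, 41.4 and 59.3 CPM in shSCR. The groups do not overlap, and shPostn replicate 3, the library with the most leukocyte reads, is the lowest. The means were 23.2 ± 10.8 CPM in shPostn and 51.4 ± 9.18 CPM in shSCR (SD, n = 3 each), and the log2 fold change was −1.15 (SE 0.40), which edgeR did not call. Without shPostn replicate 3 the log2 fold change was −0.81 and the gene was called (as were 9.2% of genes, in that direction), and DESeq2 called it with all 6 libraries (7.28%). The part of leukocyte RNA in the values of that library for Wnt10a, Wnt5b and Notum was not tested. In sorted bulk samples, fewer cells expressing a gene and less RNA per cell cannot be told apart.

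Wnt5a (ENSMUSG00000021994; chromosome 14, 28504750 to 28527448, plus strand), the main ligand of the branches that act without beta-catenin, was the member with the most reads. It measured 86.0, 81.8 and 90.8 CPM in shPostn, against 74.0, 69.9 and 75.3 CPM in shSCR. Every shPostn library is above every shSCR library, by little. The means were 86.2 ± 4.49 CPM in shPostn and 73.1 ± 2.86 CPM in shSCR (SD, n = 3 each), and the log2 fold change was 0.24 (SE 0.06). It was not called by edgeR with all libraries or with any 1 left out, while DESeq2 called it.

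Its paralog Wnt5b (ENSMUSG00000030170; chromosome 6, 119432531 to 119544347, minus strand) had few reads, between 17 and 49 counts a library. It measured 1.33, 1.06 and 2.45 CPM in shPostn, against 1.72, 1.07 and 0.862 CPM in shSCR. The groups overlap, and the highest value is again that of shPostn replicate 3. The log2 fold change was 0.40 (SE 0.43, n = 3 each) and turned to −0.027 without that library. The gene Fbxl14 lies inside the Wnt5b locus on the opposite strand, and whether the counting used the strand of these strand-specific libraries is not given in the sources used here.

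Among the inhibitors, Nkd1 and Notum were low in shPostn while Axin2 and Znrf3 stayed near their shSCR levels. Nkd1 (ENSMUSG00000031661; chromosome 8, 88521354 to 88594884, plus strand) encodes a naked cuticle protein, which binds Dishevelled and dampens the signal inside the cell. It measured 0.615, 0.606 and 0.749 CPM in shPostn, against 3.15, 4.79 and 3.75 CPM in shSCR. The shPostn libraries are alike and all lie below the lowest shSCR library. The means were 0.657 ± 0.0797 CPM in shPostn and 3.90 ± 0.828 CPM in shSCR (SD, n = 3 each), and the log2 fold change was −2.56 (SE 0.28). Summed counts were 39 against 236, a ratio of 0.169 (95% interval 0.117 to 0.237). The gene was called with any 1 library left out, with log2 fold changes between −2.69 and −2.38.

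Notum (ENSMUSG00000042988; chromosome 11, 120653788 to 120661175, minus strand) encodes a secreted enzyme that cuts the lipid from WNT ligands and so inactivates them. It measured 0.410, 0.253 and 0.699 CPM in shPostn, against 2.70, 1.86 and 2.33 CPM in shSCR. The groups do not overlap, and shPostn replicate 3 is the highest of its group. The means were 0.454 ± 0.226 CPM in shPostn and 2.30 ± 0.426 CPM in shSCR (SD, n = 3 each), and the log2 fold change was −2.32 (SE 0.41), with 27 counts against 139 (ratio 0.198, 95% interval 0.126 to 0.301). Its call was lost without shSCR replicate 1 (log2 fold change −2.19), without shSCR replicate 2 (−2.46) and without shSCR replicate 3 (−2.31).

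Axin2 (ENSMUSG00000000142; chromosome 11, 108920349 to 108950783, plus strand), a scaffold of the destruction complex, is the target gene most often read as a gauge of beta-catenin signalling. It measured 56.4, 55.0 and 54.3 CPM in shPostn, against 54.4, 45.8 and 46.5 CPM in shSCR. The shPostn libraries are nearly equal, and shSCR replicate 1 reaches them. The means were 55.2 ± 1.05 CPM in shPostn and 48.9 ± 4.80 CPM in shSCR (SD, n = 3 each), and the log2 fold change was 0.18 (SE 0.08). In all 15 other settings it stayed uncalled with a log2 fold change between 0.0985 and 0.26, opposite in sign to those of Nkd1 and Notum.

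Znrf3 (ENSMUSG00000041961; chromosome 11, 5276324 to 5444847, minus strand) encodes a membrane ubiquitin ligase that takes Frizzled receptors off the cell surface. It measured 18.2, 19.6 and 20.6 CPM in shPostn, against 20.4, 21.4 and 21.0 CPM in shSCR. The groups overlap at shPostn replicate 3, and the log2 fold change was −0.10 (SE 0.08, n = 3 each), not called under any setting tried. Its partner ligase gene Rnf43 had 0, 0 and 0 counts in shPostn, against 1, 0 and 1 in shSCR. Nkd2, the paralog of Nkd1, had 0, 0 and 1 counts in shPostn, against 0 in each shSCR library. Both are at or under the limit that a count of 0 allows (3 counts, or between 0.146 and 0.154 CPM per library), so no fold is given, and expression below this limit was not detectable at this depth. Within each pair of related genes, nearly all reads were thus those of Nkd1, of Znrf3 and of Wnt5a.

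**Figure D2:**
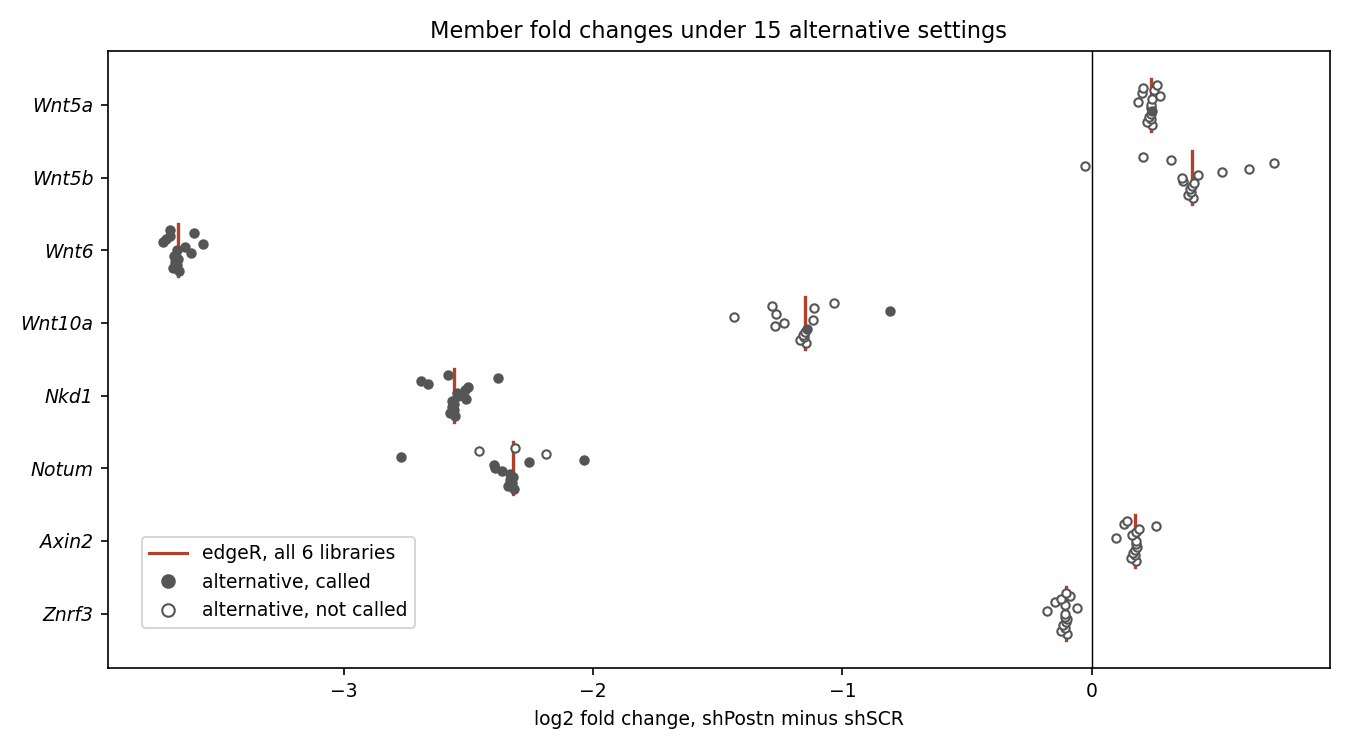
Log2 fold change (shPostn minus shSCR) of the 8 tested members: the red line is the edgeR fit on all 6 libraries, and each point 1 of 15 other settings (scalings, filters, tools, a replicate block, chromosome medians taken out, or 1 library left out), filled where the gene was called. Wnt6 and Nkd1 are filled in every setting, Notum is open in 3, and Wnt5b crosses 0 in 1.

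The settings differ in how many of all tested genes they called in either direction. The share was 14.2% with DESeq2, 6.62% with no count filter, 5.73% with a replicate block and 5.01% with chromosome medians taken out. It was 7.23%, 4.89% and 17.1% without shPostn replicate 1, 2 and 3, and 3.3%, 2.36% and 3.1% without shSCR replicate 1, 2 and 3.

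Levels of different genes can be compared only per length of transcript, here as CPM per kilobase of the gene's merged exons, which understates a gene that uses only a short isoform. On this scale Wnt10a, Wnt5a and Axin2 led in both groups. In shPostn, Wnt5a came first with 11.02 ± 0.574 CPM per kb, then Axin2 with 10.03 ± 0.190 and Wnt10a with 9.41 ± 4.38 (SD, n = 3), and the wide range of Wnt10a takes in those of both others. In shSCR, Wnt10a came first with 20.8 ± 3.72 CPM per kb, above Wnt5a with 9.34 ± 0.365 and Axin2 with 8.88 ± 0.872, whose ranges overlap. Znrf3 came after them in both groups, with 2.46 ± 0.153 CPM per kb in shPostn and 2.65 ± 0.0624 in shSCR. Wnt6 had 0.192 ± 0.0245 CPM per kb in shPostn, among Notum (0.188 ± 0.0939) and Nkd1 (0.144 ± 0.0175), and its range overlaps those of both there. In shSCR it had 2.47 ± 0.195 CPM per kb, next to Znrf3, whose range it overlaps. Notum (0.954 ± 0.177) and Nkd1 (0.855 ± 0.182) follow it in shSCR and overlap each other. Wnt5b had 0.608 ± 0.276 CPM per kb in shPostn and 0.459 ± 0.168 in shSCR, and the order thus places it above Wnt6 in shPostn and below it in shSCR.

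The summed level of all 19 Wnt genes on this scale was 88.3, 75.9 and 56.5 CPM per kb in shPostn, against 82.7, 73.5 and 81.0 in shSCR. The groups overlap, and shPostn replicate 3 is the lowest library. The make-up differed more than the sum. Wnt10a made up 14.5%, 14.4% and 7.91% of the summed level in shPostn, against 26.3%, 22.8% and 29.7% in shSCR. Wnt6 made up 0.186%, 0.273% and 0.363% in shPostn, against 2.85%, 3.67% and 2.92% in shSCR. Both ligands had a smaller share in every shPostn library. Wnt9a, which was not a member, made up 25.5%, 28.3% and 25.8% in shPostn, against 11.1%, 14.96% and 15.3% in shSCR. Wnt5a made up 12.5%, 13.8% and 20.5% in shPostn, against 11.4%, 12.2% and 11.9% in shSCR, and Wnt5b at most 1.63% in any library. The rest was mainly Wnt10b and Wnt7b. Shares in 1 library depend on each other, and no test was run on them.

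**Figure D3:**
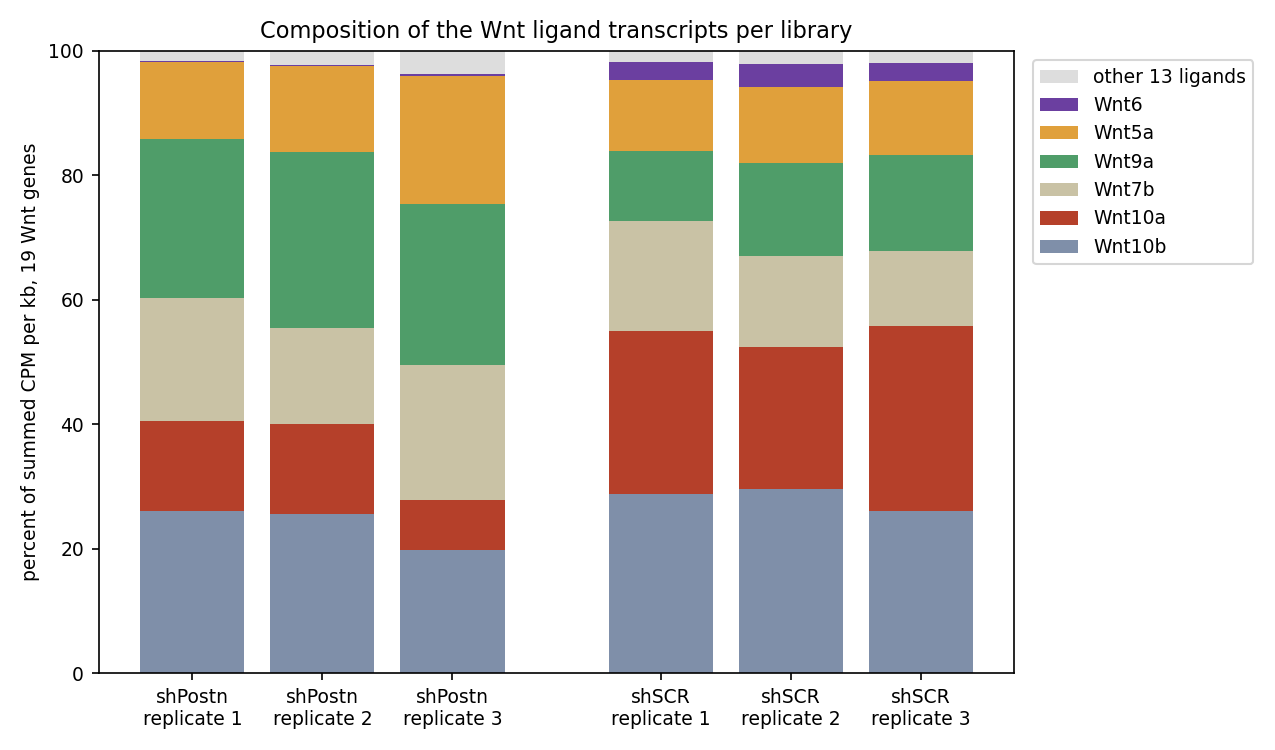
Share of each Wnt gene in the summed CPM per kilobase of all 19 Wnt genes, 1 bar per library, shPostn left and shSCR right; the other 13 are drawn together. The Wnt10a and Wnt6 segments are smaller and the Wnt9a segment larger in each shPostn library than in any shSCR library.

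The other genes of the pathway were grouped in 9 lists by role, with 116 distinct genes, of which 75 were tested. Of these, 3 rose and 5 fell, together 10.7% of the tested genes, near the 10.1% of all genes called in either direction; their median log2 fold change was 0.05. Of 4 tested other ligands Wnt9a (chromosome 11), a ligand known from joint formation, rose to 65.1 ± 14.4 CPM in shPostn, against 36.2 ± 5.35 CPM in shSCR (n = 3 each; log2 fold change 0.85, SE 0.19, edgeR adjusted p = 0.0430). Of 12 tested receptors and co-receptors Ptk7, a pseudokinase co-receptor of planar polarity, fell to 15.7 ± 9.30 CPM in shPostn, against 100.4 ± 8.16 CPM in shSCR (log2 fold change −2.67, SE 0.46, edgeR adjusted p = 0.0268). In this list the median log2 fold change was −0.43, and 6 genes had an unadjusted p under 0.05, beside 27.0% of all tested genes. DESeq2 called 4 of the list, beside 14.2% of its genes. These were Ptk7, Ror2 (−2.04) and Fzd8 (−1.97), which were lower, and Fzd2 (0.55), which was higher. Fzd8 lies on chromosome 18 (median −0.45) and had 3, 13 and 32 counts in shPostn, against 68, 70 and 53 in shSCR. Ror2, Fzd8 and Fzd2 are named after their values were seen, and edgeR with all libraries did not call them. Without shPostn replicate 3 edgeR called 5 of the list, all lower, beside 9.2% of all tested genes called lower. These were Ptk7, Ror2 (−2.84), Fzd8 (−2.93), Fzd4 (−0.97) and Lrp5 (−0.44). Fzd4 and Lrp5 are also named after their values were seen. Of the list, limma-voom called Ptk7 and Ror2 (−2.20), among 1345 genes in all. Without shPostn replicate 1 edgeR called Fzd2 (0.68) and Ptk7, beside 7.23% of all tested genes. Of 13 nuclear factors Pygo1, a co-activator in the beta-catenin complex, fell to 2.31 ± 1.22 CPM in shPostn, against 9.74 ± 0.328 CPM in shSCR (log2 fold change −2.07, SE 0.40, edgeR adjusted p = 0.0263). The corepressor gene Tle3 rose (0.25, SE 0.06, edgeR adjusted p = 0.0409). Of 13 genes of the polarity and calcium branch Mapk8, which encodes the kinase JNK1, fell (−0.37, SE 0.09, edgeR adjusted p = 0.0410).

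Of 17 genes of cytoplasmic signal transduction, the destruction complex genes Apc (log2 fold change −0.43, SE 0.06, edgeR adjusted p = 0.00788) and Csnk1a1 (−0.38, SE 0.06, edgeR adjusted p = 0.0130) fell. Both lie on chromosome 18, whose 343 tested genes had a median of −0.45. With chromosome medians taken out their log2 fold changes were 0.024 and 0.073, and neither was called. Of 10 other beta-catenin target genes Twist1, a mesenchymal transcription factor on chromosome 12 (median 0.39), rose (0.54, SE 0.10, edgeR adjusted p = 0.0214). With the median taken out it had a log2 fold change of 0.15 and was not called. Of the 10 target genes, 3 had an unadjusted p under 0.05, beside 27.0% of all tested genes. DESeq2 called 3, beside 14.2% of its genes. These were Twist1, Cd44 (0.276) and Apcdd1, which was lower. edgeR with all libraries called neither Cd44 nor Apcdd1. The target genes Ccnd1 and Myc had log2 fold changes of 0.36 and −0.06 (edgeR adjusted p = 0.293 and 0.700). Without shPostn replicate 3 edgeR called Ccnd1 (0.535, edgeR adjusted p = 0.0248) and Cd44 (0.319, edgeR adjusted p = 0.0333), beside 17.1% of all genes. Ccnd1, Myc and Cd44 are named after their values were seen. Beta-catenin itself, Ctnnb1, had a log2 fold change of 0.10 (SE 0.06, edgeR adjusted p = 0.327).

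Most of these calls changed when 1 library was left out. Without shSCR replicate 1, 2 or 3, left out in turn, 1 of the pathway genes was called each time, and it was Apc. The shares of all tested genes called were then 3.3%, 2.36% and 3.1%. Without shPostn replicate 2 there were 3 calls, without shPostn replicate 1 there were 7, and without shPostn replicate 3 there were 20. The shares of all tested genes called were 4.89%, 7.23% and 17.1% in the same order. Wnt9a, Tle3, Mapk8 and Twist1 were called with shPostn replicate 3 left out and with no other library left out, where their highest adjusted p was 0.152, 0.158, 0.138 and 0.105 in edgeR. Ptk7 and Pygo1 lost their calls without shPostn replicate 2 and with any 1 shSCR library left out (highest edgeR adjusted p 0.0954 and 0.103), and Csnk1a1 with any 1 shSCR library left out (highest edgeR adjusted p 0.0682). Wnt9a and Tle3 also lost their calls with chromosome medians taken out (edgeR adjusted p = 0.0761 and 0.0697), and with no count filter Wnt9a, Ptk7 and Tle3 lost theirs (edgeR adjusted p = 0.0704, 0.0669 and 0.0695).

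In 3 lists no gene was called by the edgeR fit with its count filter on all 6 libraries. Their counts at an unadjusted p under 0.05 stand beside the 27.0% of all tested genes. The secretion genes Wls, the carrier of WNT proteins to the cell surface, and Porcn, the enzyme that lipidates them, had log2 fold changes of −0.02 and 0.38 (edgeR adjusted p = 0.915 and 0.316), and 0 of the 2 had an unadjusted p under 0.05 or a DESeq2 call. Of 5 tested antagonists, Apcdd1 on chromosome 18 had a log2 fold change of −1.01 (SE 0.24, edgeR adjusted p = 0.0517) and Kremen1 one of 0.17 (edgeR adjusted p = 0.349); 1 had an unadjusted p under 0.05, and DESeq2 called 1, Apcdd1, as did limma-voom, and edgeR without shPostn replicate 1 and without shPostn replicate 2. With chromosome medians taken out, the log2 fold change of Apcdd1 was −0.56 (edgeR adjusted p = 0.236). In the list of R-spondins, which protect Frizzled from ZNRF3 and RNF43, and their receptors, Lgr4 (0.39, edgeR adjusted p = 0.0930) and Lgr6 (0.62, edgeR adjusted p = 0.318) were tested, 1 of them with an unadjusted p under 0.05. Without shPostn replicate 3 edgeR called 2 of the list, Lgr4 (0.474) and Rspo1 (−4.03), beside 17.1% of all tested genes. DESeq2, and edgeR with no count filter, called 2 genes of the list that the filter had left out, named here after their values were seen. These settings called 14.2% and 6.62% of all their genes. Rspo1 had 0, 2 and 3 counts in shPostn, against 10, 19 and 27 in shSCR, and Rspo4 had 0, 1 and 0 in shPostn, against 8, 17 and 6 in shSCR. The groups overlap for neither gene, while 16.9% of all tested genes were lower in shPostn with no overlap. As both were picked by their values, nothing is read from this.

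**Figure D4:**
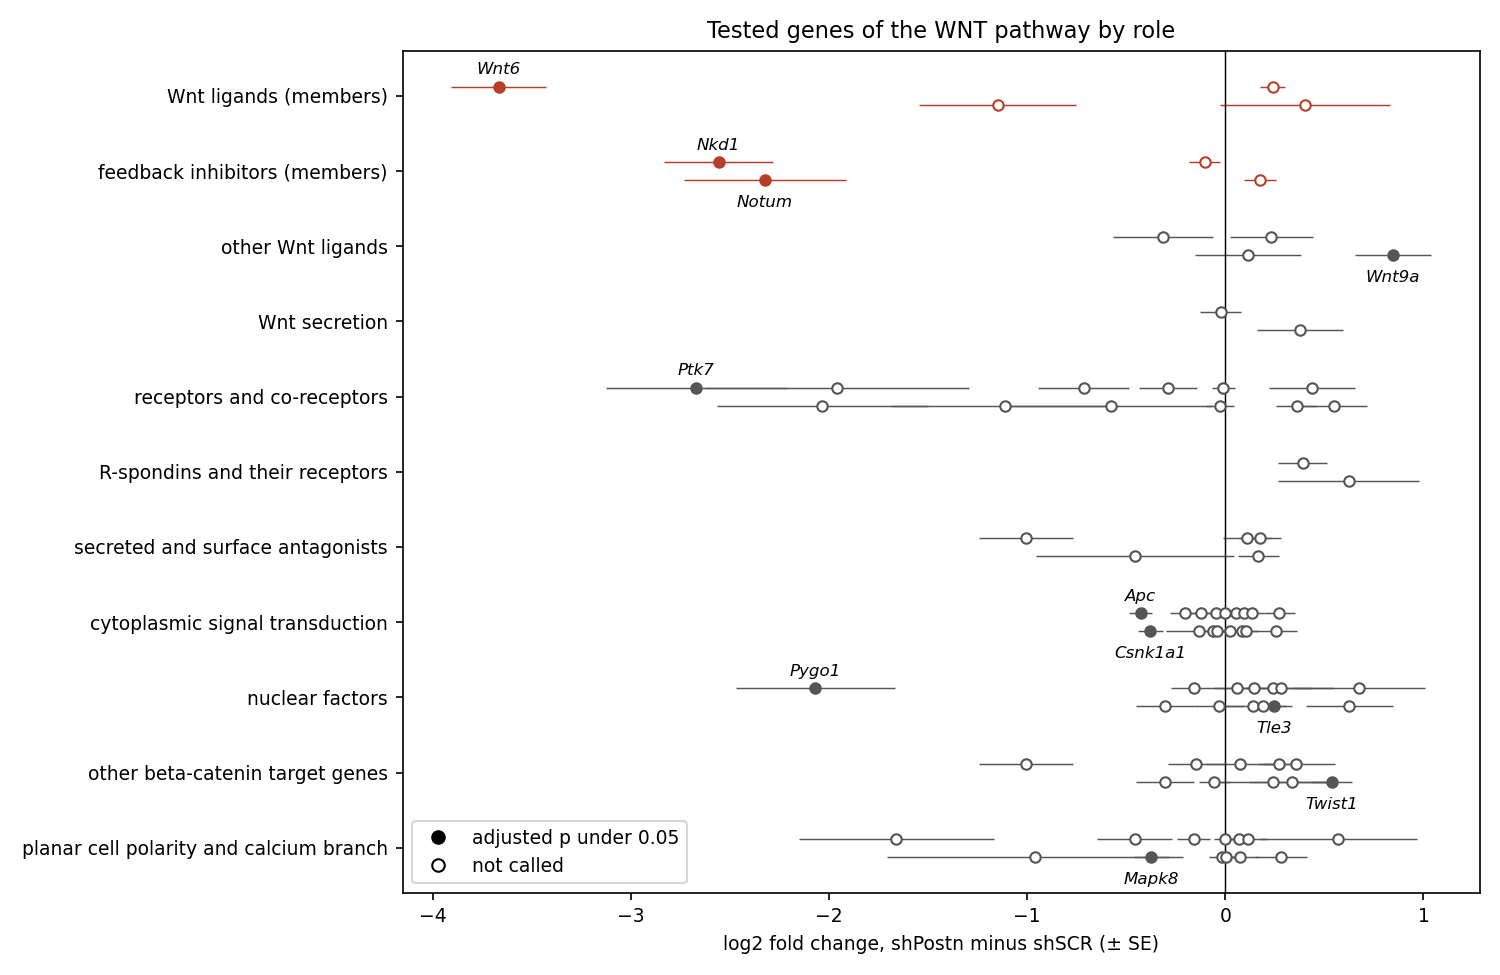
Log2 fold change (shPostn minus shSCR) ± SE of every tested gene, by role, members in red in the upper 2 rows and the other pathway lists in grey; filled points passed the adjusted p threshold and are named. Most open points lie near 0 in the lists of signal transduction and nuclear factors, and Wnt6, Nkd1 and Notum lie between −3.67 and −2.32.

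The members' chromosomal surroundings were examined because 4 of the 6 inhibitors lie on chromosome 11 and Wnt6 and Wnt10a are neighbours. The 1031 tested genes of chromosome 11 had a median log2 fold change of 0.08, those of chromosome 1 a median of −0.03 and those of chromosome 8 a median of −0.01. Within 1 Mb of Wnt6 39 genes were tested, the member Wnt10a among them, with a median of −0.09. Called lower were 3 (5.53% of all tested genes were), the muscle filament gene Des (−3.49), the anion exchanger gene Slc4a3 (−0.67) and the focal adhesion gene Tns1 (−0.44). An unadjusted p under 0.05 was found for 9 of the 39, beside 27.0% of all tested genes. DESeq2 called 5, beside 14.2% of its genes. Within 1 Mb of Nkd1 9 genes were tested, with a median of −0.04. edgeR and DESeq2 called 0 of these 9, and 3 had an unadjusted p under 0.05, beside 27.0% of all tested genes. Within 1 Mb of Notum 49 genes were tested, with a median of 0.07. Of these, 2 rose (4.61% of all tested genes did) and 2 fell (5.53%), among them the proline synthesis gene Pycr1 (−0.76) at a gap of 10.019 kb. An unadjusted p under 0.05 was found for 14 of the 49, and DESeq2 called 7. With chromosome medians taken out, the log2 fold changes of Wnt6, Nkd1 and Notum were −3.64, −2.54 and −2.40, and all 3 were still called.

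**Figure D5:**
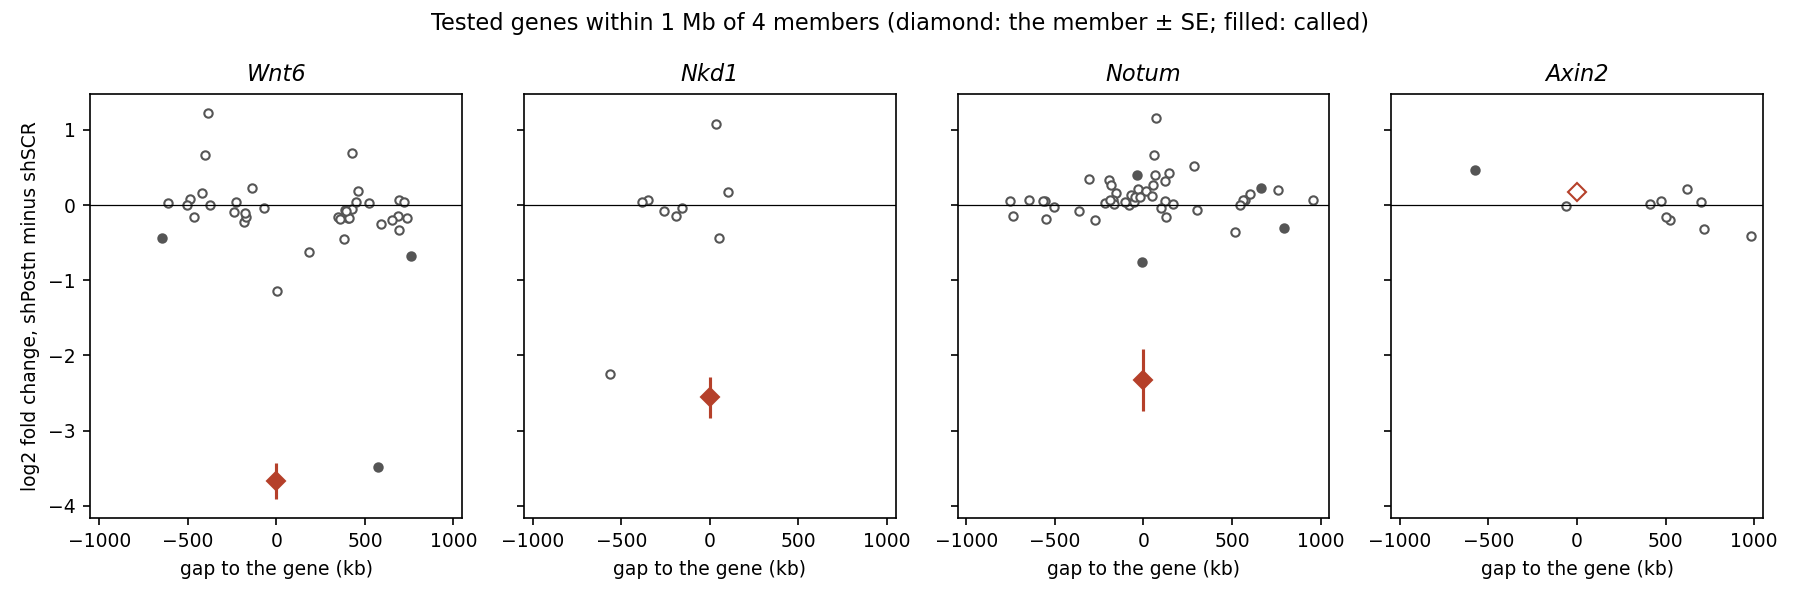
Log2 fold change (shPostn minus shSCR) of the tested genes within 1 Mb of Wnt6, Nkd1, Notum and Axin2, against their gap to that gene in kilobases; the red diamond is the member ± SE and filled points were called. Most neighbours of the 3 lower members lie near 0, with Des near Wnt6 and the uncalled Zfp423 near Nkd1 (−2.25) as low points.

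Wnt5a, the member with the highest mean CPM, was also compared with every other tested gene by its log2 CPM over the 6 libraries. Of 12818 genes, Stk4, a kinase of the Hippo pathway (Pearson r = 0.997), the cell cycle inhibitor gene Cdkn1b (0.995) and Pgm2l1 (0.994) were the most like it. The 6 points share the difference between the groups, and a rank over so many genes brings up high values in any case, so this is a description of these libraries.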

How the data were processed

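Per the labels, BGI made strand-specific mRNA libraries from TRIzol-extracted RNA and sequenced them on DNBSEQ. The authors deposited estimated counts per Ensembl gene; the submitters' processing notes name Salmon and mm10, and no version or annotation is given in the sources used here. The deposited values were whole numbers (0 exceptions), so rounding changed none. IDs were matched to GENCODE M21 (GRCm38) for symbols, positions and exon lengths.

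edgeR 4.0.16 in R 4.3.3 (filterByExpr with a minimum count of 10, TMM, robust quasi-likelihood F-test, no covariates) gave shPostn minus shSCR; Benjamini-Hochberg adjustment ran over all 12819 tested genes. The SE is the log2 fold change over the square root of F. The script was tested on simulated data. Alternatives were 3 scalings, 2 filters, DESeq2 1.42.0, limma-voom (limma 3.58.1), a replicate block, chromosome medians taken out of the offsets, and each library left out. Where DESeq2 gave no adjusted p, none was used. Each library's depth, about equal across the 6, is given with the results; a count of 0 allows 3 counts.

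The members and lists were chosen with earlier results of these data known. The rule for named genes took all 10 members, Postn, in each list the 2 called genes with the largest change each way (the 2 most abundant where none was called), and the 3 genes most like the most abundant member. Other genes named are ligands of the summed pool, called neighbours of a member or genes named after their values were seen (Zfp423, Ctnnb1, Ccnd1, Myc, Cd44, Fzd2, Fzd4, Fzd8, Lrp5, Ror2, Rspo1, Rspo4).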

Additional observations from a re-analysis of the deposited data

How the results depend on the processing

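Of the 1300 genes called, the count was 735 with the replicate block and 642 with chromosome medians taken out, of which 678 and 607 were among the 1300; it lay between 307 (without shSCR replicate 2) and 2220 (without shPostn replicate 3) with 1 library left out. The members called lower numbered between 2 and 4 with 1 library left out, and DESeq2 called 1 member higher (Wnt5a), against 0 in edgeR. The other pathway genes called, 8 in edgeR, numbered 15 in DESeq2, 3 with the replicate block, 3 with chromosome medians taken out, and between 1 and 20 with 1 library left out. In the same order, the shares of all genes called were 10.1%, 14.2%, 5.73%, 5.01% and between 2.36% and 17.1%. The log2 fold change of Wnt5b lay between −0.0271 (without shPostn replicate 3) and 0.73, that of Wls between −0.11 and 0.0807 (without shPostn replicate 1), and those of Apc and Csnk1a1 were 0.0237 and 0.0733 with chromosome medians taken out; these 4 were the signs that turned among the 23 genes refitted in every setting (the 8 tested members, Postn and 14 pathway genes). Beyond the construction of each setting, the cause was not tested. The deviations of same-numbered libraries from their group means correlated at −0.08, −0.13 and −0.43, which gave no sign that the numbers pair the libraries. Such values cannot exclude a pairing, since shPostn replicate 3 stands apart by its leukocyte markers. In the replicate block fit Wnt6, Nkd1 and Notum were still called, and Apcdd1 was called (edgeR adjusted p = 0.0430). In that fit Postn (edgeR adjusted p = 0.0592), Wnt9a, Ptk7, Pygo1, Tle3, Twist1 and Mapk8 were not called (between 0.0535 and 0.140). For Wnt6, Nkd1, Notum and Wnt5b, whose summed counts in 1 group were between 25 and 96, depth limits the precision, and for Nkd2 and Rnf43 it limits detection.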
